A study of Mus musculus with 21 samples.

Results

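The cytosolic ribosome is built from ribosomal RNA and a fixed set of small proteins, those of the small subunit named Rps and those of the large subunit named Rpl. The genes that encode them were taken by name and kept where they were annotated as protein coding and had at least 10 counts in all. Of 80 such genes in the table, 79 passed, 31 of the small and 48 of the large subunit, among 20256 genes tested and 53801 listed. *Rpl10l* had no count in any library and was the 1 left out.

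RNA was sequenced from IgA+ plasma cells (IgA+ PCs) of the small intestinal lamina propria, sort-purified as CD138+ IgA+ cells from 21 C57BL/6 mice, 1 library per mouse. Control mice were Mb1Cre-/- x Arntlfl/fl, 6 taken at ZT0 and 6 at ZT12, where zeitgeber time (ZT) counts hours from lights on. Knockout mice were Mb1Cre+/- x Arntlfl/fl, 4 at ZT0 and 5 at ZT12, so that all mice carried the floxed *Arntl* alleles and the groups differed in the Cre. Mb1 is *Cd79a*, so the Cre acts in the whole B lineage from early development and not in plasma cells alone, and *Arntl* encodes the clock protein Bmal1. The study's methods describe cohoused littermates of mixed genotype with free access to food under a 12 h light and 12 h dark cycle, and the labels gave no age or sex. Genotypes were taken from the sample titles, because 8 of the 9 samples titled as knockout carry the control name in their genotype entry.

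Cells spend much of their transcription on ribosomes, and the messenger RNAs of ribosomal proteins are short, abundant and stable. Most begin with a cytosine followed by a run of pyrimidines, the terminal oligopyrimidine (TOP) start, through which the kinase mTOR and the RNA-binding protein Larp1 set how much of them is translated. Plasma cells translate immunoglobulin chains at a high rate, which calls for many ribosomes.

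The TOP start is shown here for the named genes that carry it, as the sequence feature these messenger RNAs are best known for. RefSeq promoter windows of the GRCm38.p6 build were at hand for 59 of the 79 genes, as 71 windows from 250 bases before to 50 bases after the annotated start. Each line gives 30 bases on the gene's strand, with the start at base 16 and the cytosine and following pyrimidines in capitals.
Rps6: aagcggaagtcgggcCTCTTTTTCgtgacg
Rps18: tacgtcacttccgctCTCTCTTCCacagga
Rpl35a: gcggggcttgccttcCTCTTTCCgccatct
Rplp2: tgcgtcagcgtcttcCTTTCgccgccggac
Rps27: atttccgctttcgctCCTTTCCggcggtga
They lie at chr4:86857353-86857382 on the minus strand, chr17:33955651-33955680 (minus), chr16:33056467-33056496 (plus), chr7:141447636-141447665 (plus) and chr3:90213634-90213663 (minus). The pyrimidine run from the start was 9 bases long in *Rps6* and *Rps18*, 8 in *Rpl35a*, 7 in *Rps27* and 5 in *Rplp2*.

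A cytosine with at least 4 pyrimidines after it stood exactly at the annotated start in 13 of the 71 windows (18.3%), against 823 of all 32851 promoter windows (2.51%). The search asks for a match at 1 exact base, so a start annotated a base away is not counted. The ETS motif CCGGAAG, on either strand, was in 26 windows (36.6%, against 8.86% of all windows), and the YY1 motif AAGATGGC in 7 (9.86%, against 2.75%). CACGTG, the E-box that Clock and Bmal1 can bind, was in 8 windows (11.3%, against 7.15%) of 6 genes, *Rpl13a*, *Rpl14*, *Rpl19*, *Rpl23*, *Rpl34* and *Rps19*. For *Rpl19* and *Rpl34* the same site was counted in overlapping windows. By gene, 10.2% of the 59 had an E-box, against 8.09% of all genes with a window.

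The E-box is printed for *Rpl23* and *Rpl19*, where it lies nearest to the start, because *Arntl* is the gene deleted.
Rpl23: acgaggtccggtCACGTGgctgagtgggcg
Rpl19: tacccagaggacCACGTGaccaaacgccct
The capitals mark the E-box. It begins 3 bases before the start of *Rpl23* (chr11:97782425-97782454, minus strand) and 19 bases before the nearer of the starts of *Rpl19* (chr11:98026679-98026708, plus strand). The 6 genes with an E-box had a median log2 change of 0.72 from ZT0 to ZT12 in control mice, and the other 53 genes with a window had one of 0.64. The 13 genes with a TOP start had a median of 0.72, with 6 of them called by the test given below, and the other 46 one of 0.63, with 28 called. These medians are descriptions, and a match of letters is not a bound site.

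In control mice the ribosomal protein genes were higher at ZT12 than at ZT0. The median of their 79 log2 changes was 0.64, a 1.56-fold difference, with the middle of the genes between 0.56 and 0.73, while the median of all genes tested was 0.01. The fitted change was above 0 for 78 of the 79, against 50.6% of all genes. The test called 45 of the 79 higher and none lower (edgeR's quasi-likelihood test, adjusted p under 0.05), where 0.948% of all genes tested were called higher and 0.78% lower. These 45 made up 57% of the ribosomal protein genes and 23.4% of the 192 genes called higher, although the family is 0.39% of the genes tested. Unadjusted p was under 0.05 with a higher level at ZT12 for 73 of them, against 9.19% of all genes, and for none with a lower level. Both subunits took part, with 19 of 31 small-subunit genes called and a median of 0.66, and 26 of 48 large-subunit genes called and a median of 0.63.

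DESeq2 called 68 of them higher and none lower, and 621 of all genes higher and 431 lower. The adjusted p-values of edgeR lay close to the threshold, from 0.0115 to 0.0494 among the 45 called, and 16 of the 34 others lay under 0.1. The count moved from 1 to 66 when a library was left out. It was 1 without control ZT0 replicate 1, control ZT0 replicate 2 or control ZT12 replicate 4, where 18, 12 and 18 of all genes were called higher, and 66 without control ZT12 replicate 1, where 463 were. With any 1 library left out the median stayed between 0.48 and 0.73, and 68 to 74 members had an unadjusted p under 0.05. No member was called when each library's immunoglobulin share entered as a covariate (median 0.23) or with control libraries alone in the fit (median 0.64). At an adjusted p under 0.01 the main edgeR fit called none, but the smallest adjusted p of a member was 4.94e-05 by DESeq2. In the alternative edgeR fits it ran from 0.00269 (trend on principal transcript length removed) to 0.369 (immunoglobulin covariate).

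**Figure D1:**
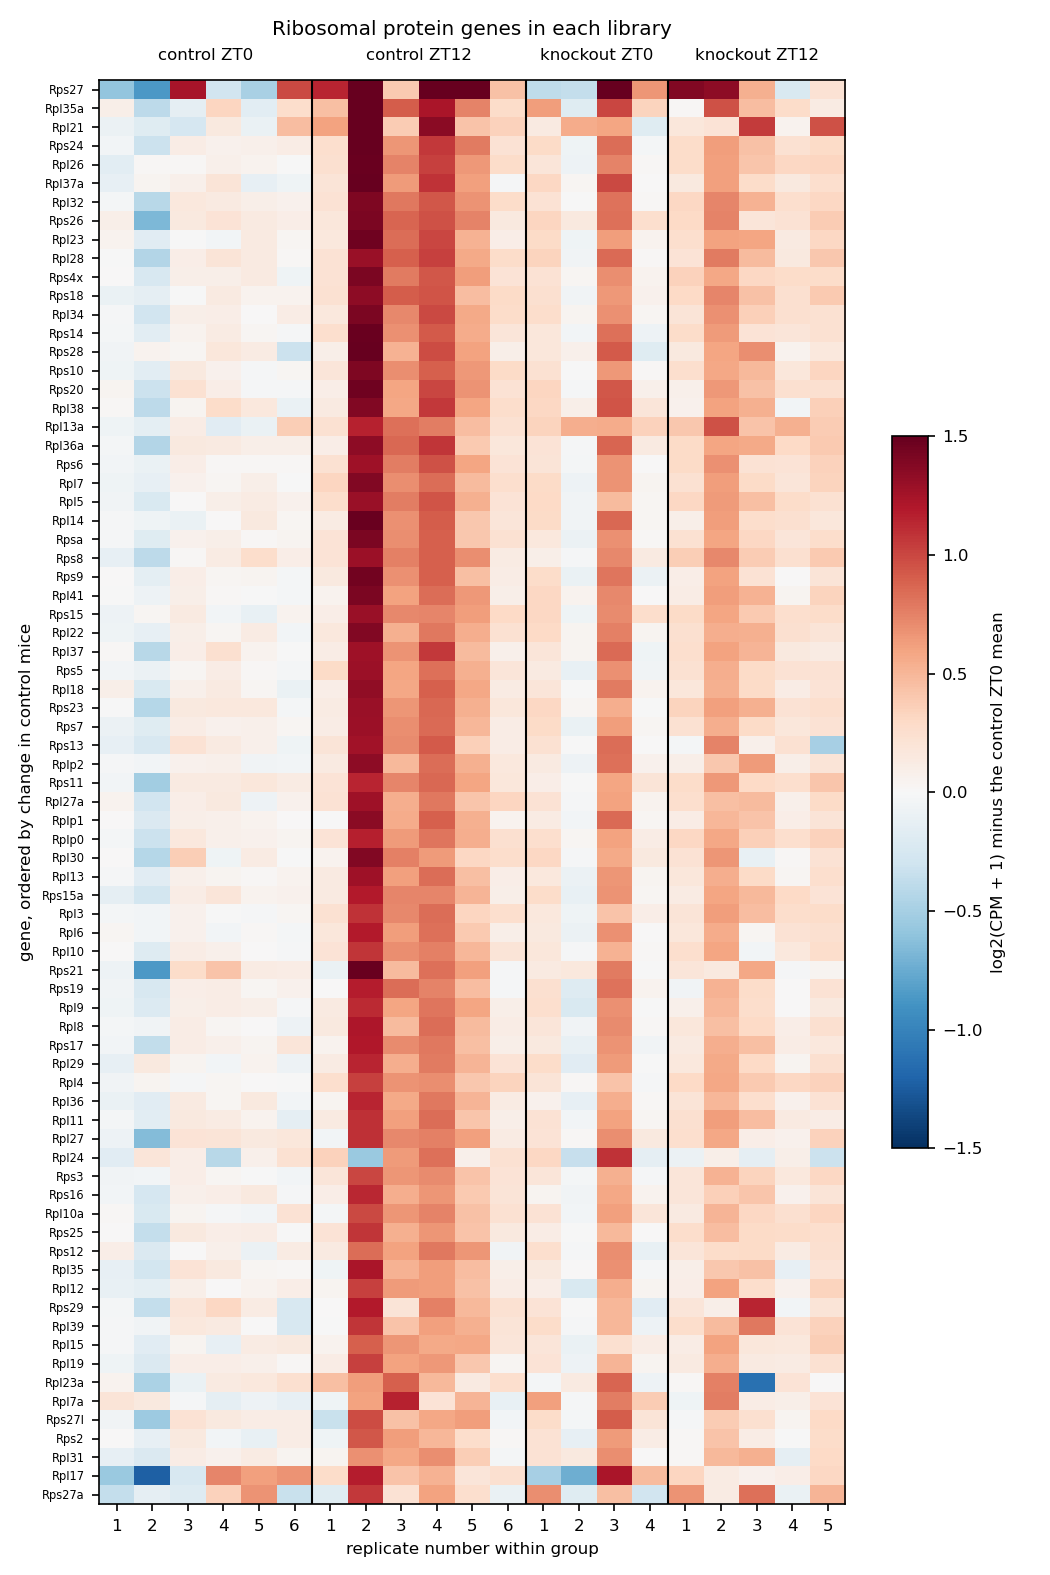
Level of each of 76 ribosomal protein genes with more than 3 counts per library on average, as log2(CPM + 1) minus the control ZT0 mean, 1 column per mouse and 1 line per gene, ordered by the change in control mice. Columns shift nearly as a whole, with control ZT12 replicate 2 the highest, and *Rps27*, *Rpl24*, *Rpl17* and *Rps27a* depart from the other genes.

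The shift was uneven among mice. In control mice at ZT0 the ribosomal protein genes took between 2.35% and 2.80% of the counts outside immunoglobulin genes, with a mean of 2.64% ± 0.171 (SD, n = 6). In control mice at ZT12 they took 2.89%, 5.57%, 4.11%, 4.42%, 3.62% and 2.96% in replicates 1 to 6, with a mean of 3.93% ± 1.01 (SD, n = 6). All 6 libraries of ZT12 lay above all 6 of ZT0, but replicates 1 and 6 only just, and replicate 2 stood far above. The mean log2 level of the 79 genes, relative to the control ZT0 mean, ranged from −0.24 to 0.11 at ZT0 and was 0.13, 1.21, 0.66, 0.80, 0.48 and 0.15 in ZT12 replicates 1 to 6. In each library of ZT12 between 67 and 79 of the genes were above their own control ZT0 mean.

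In knockout mice the shares were 3.14%, 2.53%, 4.20% and 2.82% at ZT0 and 3.00%, 3.74%, 3.34%, 2.90% and 3.23% at ZT12, with means of 3.17% ± 0.730 (SD, n = 4) and 3.24% ± 0.329 (SD, n = 5). The groups overlapped, with knockout ZT0 replicate 3 the highest of all 9 and knockout ZT0 replicate 2 the lowest. The ratio of summed small-subunit to large-subunit levels stayed between 0.688 and 0.746 over the 21 libraries. In bulk RNA of sorted cells, a smaller share of cells of a type and less RNA per cell cannot be told apart.

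**Figure D2:**
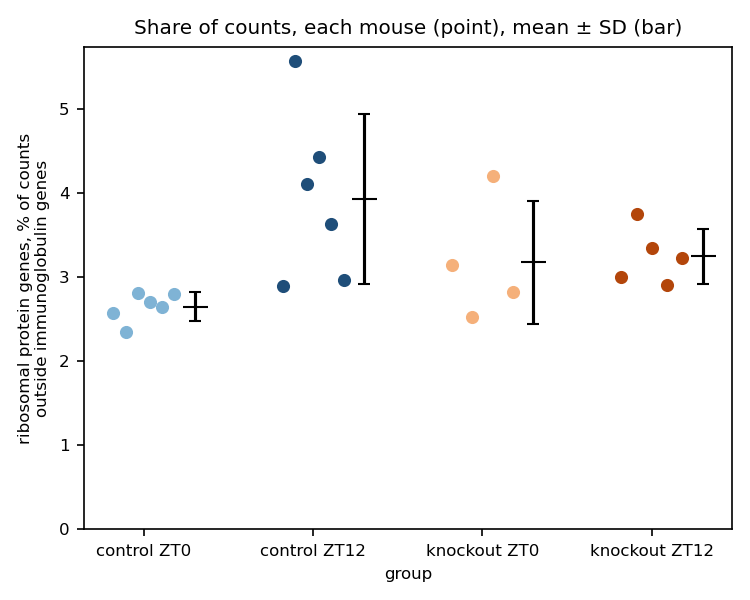
Counts on the 79 ribosomal protein genes as a percent of the counts outside immunoglobulin genes, by group, 1 point per mouse with the mean ± SD beside it. The control ZT12 points run from 2.89% to 5.57%, all above the control ZT0 points, and the knockout groups overlap.

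*Rpl4* (chr 9, 64173375 to 64178666), whose protein lines the exit tunnel, had 372, 394, 380.1, 392, 387 and 384 CPM (counts per 1000000 after TMM scaling of the library size) in control ZT0 replicates 1 to 6. At ZT12 it had 457, 784, 615, 623, 511 and 484 CPM. The groups did not overlap, and *Rpl4* rose by 0.59 ± 0.11 log2 units (SE, adjusted p = 0.0115 by edgeR). *Rpl3*, which reaches towards the catalytic centre, lay between 217 and 232 CPM at ZT0 and between 261 and 472 CPM at ZT12, again without overlap, and rose by 0.61 ± 0.13 (adjusted p = 0.0197 by edgeR).

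Of the small subunit, *Rps6* (chr 4, 86854660 to 86857412), the protein phosphorylated by the S6 kinases downstream of mTOR, ranged from 222 to 255 CPM (median 241) at ZT0 and from 276 to 576 CPM (median 383) at ZT12. Its groups did not overlap and it rose by 0.72 ± 0.15 (adjusted p = 0.0212 by edgeR), 1.65-fold. *Rps18*, of the head of the small subunit, ranged from 136 to 165 CPM and from 176 to 380 CPM and rose by 0.75 ± 0.16 (adjusted p = 0.02 by edgeR). *Rpsa*, also known as the laminin receptor precursor, ranged from 291 to 352 CPM at ZT0 and from 379.9 to 881 CPM at ZT12, without overlap, and rose by 0.71 ± 0.17 (adjusted p = 0.0376 by edgeR). *Rps15*, *Rps4x* and *Rps14* were called too, with changes of 0.68 ± 0.15, 0.76 ± 0.16 and 0.75 ± 0.18.

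*Rpl5* and *Rpl11* bind 5S ribosomal RNA and, when free of the ribosome, the p53 regulator Mdm2. *Rpl5* ranged from 189 to 242 CPM (median 228) at ZT0 and from 255 to 547 CPM (median 351) at ZT12 and rose by 0.72 ± 0.14 (adjusted p = 0.0197 by edgeR), without overlap of the groups. *Rpl11* rose by 0.58 ± 0.15 (adjusted p = 0.0450 by edgeR), with overlapping groups.

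*Rplp0*, *Rplp1* and *Rplp2* form the stalk that recruits elongation factors. *Rplp0* ranged from 475 to 663 CPM (median 614) at ZT0 and from 685 to 1336 CPM (median 895) at ZT12, without overlap, and rose by 0.63 ± 0.13 (adjusted p = 0.0212 by edgeR). *Rplp1* and *Rplp2* had changes of the same size, 0.64 ± 0.19 and 0.64 ± 0.18, but were not called (adjusted p = 0.0860 and 0.0650 by edgeR). *Rplp2* was 1 of 27 genes whose control groups did not overlap, all higher at ZT12, which is 34.2% of the family against 0.745% of all genes tested. Of these 27, *Rplp2* and *Rps9* were not called.

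Per kilobase of the principal transcript in GENCODE M21, *Rpl41* stood highest of the family, with a median over all libraries of 705 CPM per kb. *Rplp1* (587), *Rps14* (579), *Rplp0* (519) and *Rpl10* (444) followed. *Rpl41*, the smallest of the ribosomal proteins, had between 343 and 384 CPM (median 359.7) at ZT0 and between 375 and 961 CPM (median 559) at ZT12. Its groups overlapped at 1 end, and its change of 0.69 ± 0.18 narrowly missed the threshold (adjusted p = 0.0514 by edgeR). *Rpl10*, which joins the large subunit late in its assembly, rose by 0.60 ± 0.13 (adjusted p = 0.0252 by edgeR), and its control groups did not overlap.

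The 32 genes that were not called and had more than 3 counts per library on average had changes from 0.32 to 1.11 with a median SE of 0.19, and the 45 called ones changes from 0.51 to 0.83 with a median SE of 0.15. The largest estimate was that of a gene not called. *Rps27* had 18.2, 14.9, 67.4, 22.7, 19.6 and 56.7 CPM in control ZT0 replicates 1 to 6. At ZT12 it had 63.1, 119, 37.0, 83.6, 88.6 and 38.3 CPM. It varied widely within each group, and its change was 1.11 ± 0.48 (adjusted p = 0.236 by edgeR). *Rpl35a* had 0.96 ± 0.24 (adjusted p = 0.0517 by edgeR) and *Rpl39*, of the exit tunnel, 0.52 ± 0.15 (adjusted p = 0.0669 by edgeR).

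The smallest estimate was that of *Rps27a*, whose protein is made as a fusion with ubiquitin. It had 48.4, 56.7, 54.3, 79.2, 99.8 and 49.1 CPM in control ZT0 replicates 1 to 6. At ZT12 it had 54.7, 131, 72.3, 95.4, 74.0 and 57.9 CPM, in overlapping groups, with a change of 0.32 ± 0.25 (adjusted p = 0.523 by edgeR). *Rpl7a* had 0.45 ± 0.19 (adjusted p = 0.215 by edgeR). Both stand, with *Rps27*, among the genes whose level followed the rest of the family least closely.

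Several members have sister genes. *Rps27l*, the p53-responsive relative of *Rps27*, had 0.43 ± 0.19 (adjusted p = 0.252 by edgeR). *Rpl22*, whose sister *Rpl22l1* is outside the naming rule, rose by 0.68 ± 0.16 (adjusted p = 0.0414 by edgeR). *Rpl3l*, the muscle relative of *Rpl3*, had from 0 to 11 counts per library and *Rpl39l*, the testis relative of *Rpl39*, from 0 to 5, so no fold is given for either.

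Across the 21 libraries the members moved together. Each gene's log2 level was set against the mean of the other members, and the Pearson r had a median of 0.97 and was over 0.9 for 63 of the 79 genes. This is a description, since all genes of a library share its scaling and depth. The lowest values among genes over the floor of 3 counts were those of *Rpl24* (0.13), *Rpl23a* (0.53), *Rpl17* (0.61), *Rps27a* (0.61), *Rpl7a* (0.64) and *Rps27* (0.70). *Rpl24* had between 5 and 46 counts per library and *Rpl13a* a median of 6.55 CPM per kb. How reads shared with near-identical pseudogenes were counted is not given in the sources used here, so levels of single members are uncertain. The table held 288 pseudogenes named for a ribosomal protein, of which 129 could be tested. They carried 5.49% as many counts as the members, 17 of the 129 were called higher at ZT12 in control mice and none lower, and their median change was 0.78. With their counts added to the parent genes, 48 members were called (179 of all genes higher) and the median was 0.65.

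Outside the family, the genes whose levels over the 21 libraries were most like the members' mean, among 2913 genes of mean log2 CPM over 5, were *Rps10-ps2* (Pearson r = 0.98), *Fau*, *Tpt1*, *Rack1* and *Naca* (each 0.97). *Rps10-ps2* is a processed pseudogene and can share reads with *Rps10*.

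In knockout mice no ribosomal protein gene was called, and none had an unadjusted p under 0.05, where 3.91% of all genes were higher and 4.09% lower at that p and 0% were called. None of the groups failed to overlap, where 1.22% of all genes had groups apart with a higher and 1.41% with a lower level. Their median log2 change from ZT0 to ZT12 was 0.06, with 53 of 79 above 0 (50.7% of all genes), and the smallest adjusted p was 0.661. DESeq2 called none either, with 19 of all genes called higher and 28 lower. The median SE per gene was 0.19, with 4 against 5 mice. *Rpl4* had 440.4, 389.6, 516 and 381 CPM at ZT0 and then 472, 576, 507, 479 and 487 CPM at ZT12, a change of 0.22 ± 0.13. *Rps6* had 273, 234, 382 and 240.03 CPM at ZT0 and then 292, 385, 277, 275 and 304 CPM at ZT12, a change of 0.12 ± 0.17 (adjusted p = 0.661 and 0.899 by edgeR). For both genes the groups overlapped, with knockout ZT0 replicate 3 and knockout ZT12 replicate 2 the highest of their groups.

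The knockout estimates rested in part on 1 library. The mean log2 level of the members, relative to the control ZT0 mean, was 0.23, −0.05, 0.70 and 0.05 in knockout ZT0 replicates 1 to 4 and 0.18, 0.56, 0.34, 0.12 and 0.24 at ZT12. Without knockout ZT0 replicate 3 the median change was 0.24, and without replicate 2 it was −0.04, and no gene was called in either case. *Rpl24* had the lowest knockout estimate, −0.77 ± 0.50, on 8 to 46 counts per library at ZT0 and 9 to 17 at ZT12, and −0.09 without knockout ZT0 replicate 3. *Rpl39* had the highest, 0.25 ± 0.17.

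**Figure D3:**
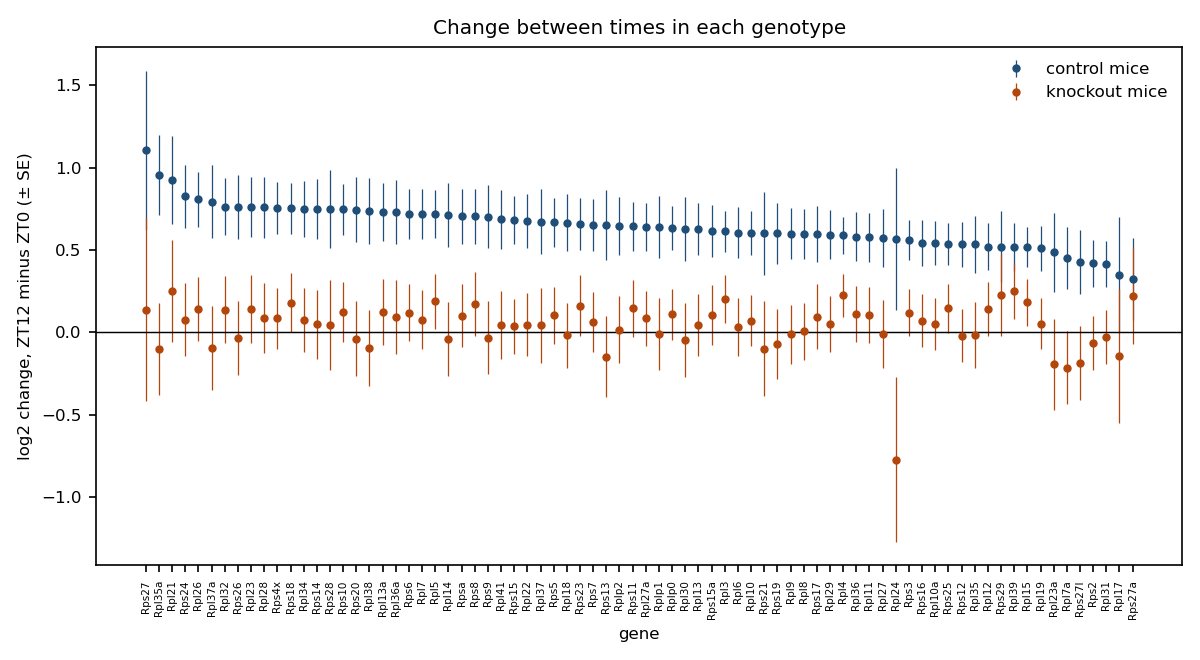
Fitted log2 change from ZT0 to ZT12 with its standard error for 76 ribosomal protein genes over the count floor, in control (blue) and knockout mice (orange), ordered by the control change. Control estimates run from 0.32 to 1.11 and knockout estimates from −0.77 (*Rpl24*) to 0.25 (*Rpl39*).

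The interaction, the knockout change minus the control change, tests whether the time difference depended on genotype. No ribosomal protein gene was called by edgeR or DESeq2, and the smallest adjusted p by edgeR was 0.442. Of all genes edgeR called 0%, and DESeq2 called 1 gene higher and 3 lower. At an unadjusted p under 0.05, 61 of 79 had a smaller change in knockout mice, against 5.63% of all genes, and none a larger one, against 5.18%. The median interaction was −0.60, and 1 of 79 was above 0, against 51.1% of all genes. Of the named genes, *Rps15* had −0.65 ± 0.22, *Rpl35a* −1.06 ± 0.37 and *Rps4x* −0.67 ± 0.24, all with an adjusted p of 0.442 by edgeR. The 61 at an unadjusted p under 0.05 became 4 without knockout ZT0 replicate 3 (median −0.40), 0 with the immunoglobulin share as a covariate (median −0.11), 17 with scaling by library size only, 22 with the trend on principal transcript length removed, 40 with that on gene length removed, 38 without control ZT12 replicate 2, 39 without knockout ZT12 replicate 4 and 37 with the run of table columns, described below, as a term.

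At each time knockout mice were set against control mice, using the same libraries as the comparisons above. At ZT0 no member was called (0% of all genes were called higher and 0.00987% lower), 78 of 79 were higher in knockout mice (48.4% of all genes), and the median was 0.25. Without knockout ZT0 replicate 3 the median was 0.07. The unadjusted p was under 0.05 for *Rpl13a*, known for silencing inflammatory transcripts, with 0.51 ± 0.19, and for *Rpl7a*, with 0.46 ± 0.21 (both adjusted p = 0.926 by edgeR). These were 2.53% of the family against 2.66% of all genes, and none was lower at that p, against 2.24%. The 2 became 18 in a fit of the ZT0 libraries alone, 10 without knockout ZT0 replicate 2 and 9 without control ZT12 replicate 2. Under the other alternatives the count was 1 to 4. At ZT12 no member was called (0.00494% of all genes higher and 0.00987% lower), 2 of 79 were higher in knockout mice, against 48.7% of all genes, and the median was −0.34. Here 29 of 79 had an unadjusted p under 0.05 with a lower level, against 4.58% of all genes, and none with a higher one, against 4.25%. Among the 29 were *Rpl10* with −0.34 ± 0.14, *Rpl9* with −0.39 ± 0.16 and *Rps4x* with −0.40 ± 0.17 (each adjusted p = 0.562 by edgeR). Without control ZT12 replicate 2 the median was −0.17. The 29 became 1 without control ZT12 replicate 2 or 4 or knockout ZT12 replicate 4, 2 to 18 without control ZT12 replicate 3 or knockout ZT12 replicate 1, 3 or 5, and 49 to 64 without control ZT12 replicate 1 or 6 or knockout ZT12 replicate 2. It was 0 with scaling by library size only or the immunoglobulin covariate, 5 in a fit of the ZT12 libraries alone, 7 with the trend on principal transcript length removed and 2 with the run of table columns as a term. For every member the genotype groups overlapped at both times, where the groups of 0.504% and 0.242% of all genes lay apart with a higher level in knockout mice and those of 0.474% and 0.138% with a lower one.

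Ribosomal protein genes are short, and in control mice short genes as a class were higher at ZT12. The deposited gene length of the members had a median of 1739 bases (404 to 6270), and their principal transcript in GENCODE M21 one of 774 bases, against 3093 and 2735.5 bases over all genes tested. Among other expressed genes (mean log2 CPM over 5), the median control change fell from 0.24 for principal transcripts of 500 to 1000 bases to 0.14 for 1000 to 2000, 0.02 for 2000 to 4000, −0.13 for 4000 to 8000 and −0.23 beyond. Members had medians of 0.63 and 0.64 in the first pair of these classes. In knockout mice the other genes ran the opposite way, from −0.03 in the class of 500 to 1000 bases to 0.16 beyond 8000 bases.

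Each member was then set against the 50 other protein-coding genes nearest to it in length. By deposited gene length the neighbours had a median control change of 0.13, and 76 of 79 members lay above the median of their neighbours, by a median of 0.53. By principal transcript length among expressed genes the neighbours had a median of 0.23, and 77 members lay above theirs, by a median of 0.41. In knockout mice the same neighbours had medians of −0.02 and −0.04, and the members lay above them by 0.08 and 0.09. For the interaction, where the members' median was −0.60, these neighbours had medians of −0.15 and −0.29. Between genotypes they had 0.04 and 0.11 at ZT0, where the members had 0.25. At ZT12 they had −0.14 and −0.18, where the members had −0.34. After removal of each library's trend on deposited gene length 38 members were called in control mice (180 of all genes higher) with a median of 0.49. After removal of the trend on principal transcript length 33 were called (200 of all genes higher), with a median of 0.32. Most members were themselves among the genes that set these trends, so the trends can hold part of the members' own shift. Within the family length and control change were hardly related (Pearson r = 0.12 across the 79 genes, which are not independent replicates). This r includes *Rpl3l* and *Rpl39l*, whose changes rest on counts at the floor.

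**Figure D4:**
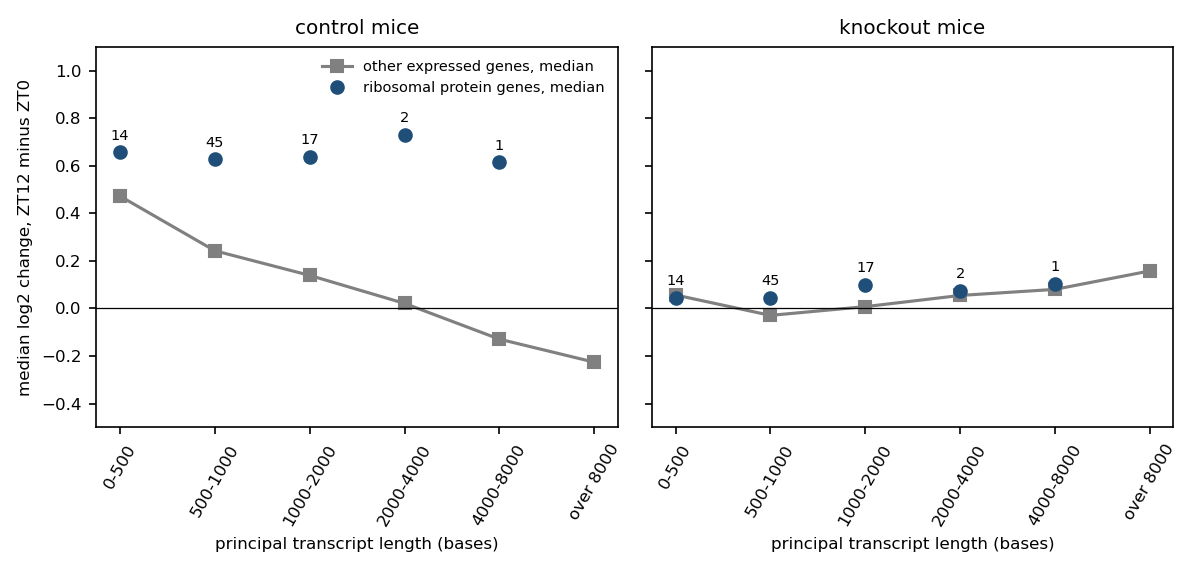
Median log2 change from ZT0 to ZT12 by class of principal transcript length, for other expressed genes (grey squares) and ribosomal protein genes (blue circles, with their number), in control mice (left) and knockout mice (right). In control mice the grey line falls with length and members lie above it in every class, and the shortest class holds only 7 other genes and the 2 longest with members only 2 and 1 members.

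The share of immunoglobulin genes moved with the members' level. Immunoglobulin genes took 51.5% to 53.3% of counts in control mice at ZT0 and 53.9%, 63.6%, 53.3%, 59.5%, 59.1% and 55.0% at ZT12. The 4 libraries over 59% were control ZT12 replicates 2, 4 and 5 and knockout ZT0 replicate 3, and their members' mean log2 levels were 1.21, 0.80, 0.48 and 0.70. Control ZT12 replicate 3 had an immunoglobulin share like that of the ZT0 libraries and a members' level of 0.66, and knockout ZT12 replicate 2 had 54.3% and 0.56. With immunoglobulin genes removed before scaling, 44 members were called in control mice (198 of all genes higher) and the median was 0.64. The part of the immunoglobulin share in the result was not tested beyond the covariate fit above.

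**Figure D5:**
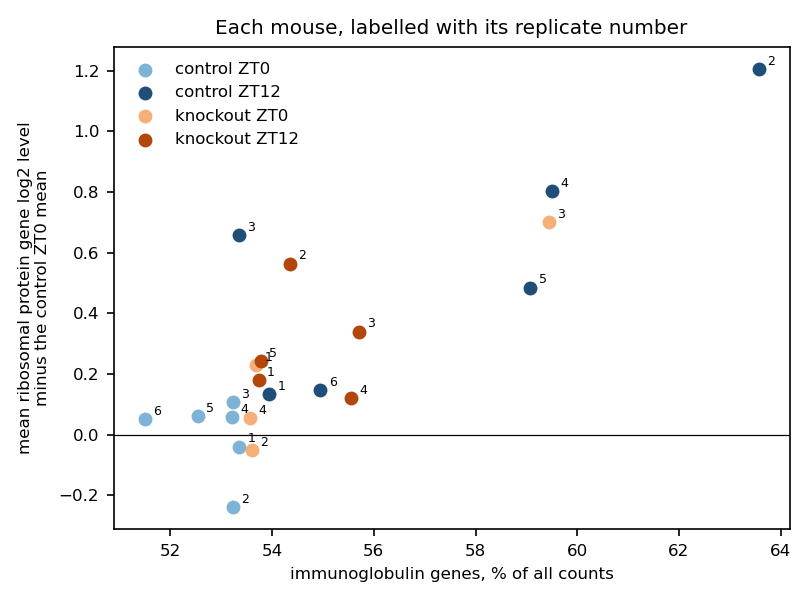
Mean log2 level of the 79 ribosomal protein genes, relative to the control ZT0 mean, against the percent of all counts on immunoglobulin genes, 1 point per mouse labelled with its replicate number. Control ZT12 replicate 2 is highest on both axes (63.6% and 1.21), and control ZT12 replicate 3 lies high at an immunoglobulin share of 53.3%.

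Libraries held 14471018 to 22785835 counts, and the columns of the table stood in 3 runs of 7, each with all 4 groups, whose meaning is not given in the sources used here. Within runs the control difference in the members' mean log2 level was 0.73 (3 mice at ZT0 against 2), 0.67 (2 against 2) and 0.26 (1 against 2), and with the run as a term 55 members and 301 of all genes were called higher. Libraries of different groups had residuals with a median correlation of 0.14 within a run and −0.08 across runs, and the run's part in the genotype comparisons is given beside them. The knockout differences within runs were −0.05, 0.24 and 0.18. *Arntl* counts over the whole gene were 7.80 ± 0.53, 4.54 ± 0.55, 4.87 ± 1.08 and 3.89 ± 0.70 CPM (SD) in control ZT0, control ZT12, knockout ZT0 and knockout ZT12. These counts are not limited to the deleted part. At ZT0 the genotypes lay apart, with 6.83 to 8.36 CPM in control and 4.08 to 6.47 CPM in knockout mice. At ZT12 the genotypes overlapped (4.00 to 5.56 and 3.11 to 4.93 CPM), so *Arntl* counts do not tell them apart at that time. All 8 plasma cell markers were detected in every group, with summed levels of 281773 to 344884 CPM in control ZT0 and 320948 to 593591 CPM in control ZT12. *Igha*, itself an immunoglobulin gene, had a mean of 275537 of the mean sum of 327645 CPM in control ZT0. In control ZT12 it had 354353 of 413778 CPM, so the sums mainly repeat the immunoglobulin share. In control mice edgeR called none of them between times, 3 were higher and 1 lower at an unadjusted p under 0.05, and DESeq2 called 2 higher and 1 lower, with *Igha* at 0.36 ± 0.12 and *Prdm1* at −0.30 ± 0.10 by edgeR. In knockout mice 1 was lower at that p, and DESeq2 called none. None of the 13 tested of 14 epithelial, 8 T cell, 9 myeloid, 8 other B cell and 8 proliferation markers was called by edgeR between times in either genotype. In control mice 5 epithelial, 1 myeloid and 2 proliferation markers were higher and 1 T cell and 1 other B cell marker lower at an unadjusted p under 0.05, and DESeq2 called 1 epithelial and 1 myeloid marker higher. In knockout mice 1 epithelial marker was higher and 1 other B cell marker lower at that p, and DESeq2 called none. Summed epithelial markers ranged from 53.1 to 340.1 CPM in control ZT0, from 74.9 to 839 in control ZT12, from 73.4 to 89.2 in knockout ZT0 and from 65.4 to 769 in knockout ZT12, with *Muc2* at 0 in control ZT0. Control ZT12 replicate 2, with the highest members' level, had 116 CPM of epithelial markers, and control ZT12 replicate 5, with the highest epithelial sum, had a members' level of 0.48. Summed T cell markers ranged from 12.5 to 29.9 CPM, myeloid from 23.2 to 132, other B cell from 15.2 to 33.7 and proliferation markers from 101 to 304 over all libraries. The part of these cells in the result was not tested.

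Related genes of the translation machinery were followed in the same fit. Of 7 ribosomal protein and ribosome-bound genes that the naming rule leaves out, 3 were called higher at ZT12 in control mice and none lower, with a list median of 0.46, and DESeq2 called 4 higher. They were *Rack1*, a scaffold on the small subunit, with 0.63 ± 0.13, *Rps3a1* with 0.79 ± 0.17 and *Fau*, which encodes Rps30 as a fusion, with 0.86 ± 0.20. *Fau* was named after its values were seen. In knockout mice the 3 had 0.14 ± 0.15, 0.10 ± 0.19 and 0.09 ± 0.23, and neither edgeR nor DESeq2 called any of the 7, with 1 higher at an unadjusted p under 0.05.

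Of 20 other messenger RNAs known for a TOP start, mainly of translation factors, 10 were called higher in control mice and none lower, with a median of 0.41, and DESeq2 called 14 higher. The initiation factor gene *Eif3f* had 0.64 ± 0.11 (adjusted p = 0.00905 by edgeR) and the elongation factor gene *Eef2* 0.55 ± 0.10 (adjusted p = 0.0103 by edgeR), while *Hnrnpa1* had −0.04 ± 0.08 and *Eif2s3x* −0.21 ± 0.19. In knockout mice edgeR called none of the 20, with 5 higher at an unadjusted p under 0.05, and DESeq2 called 1 higher. The median was 0.12, and there *Eif3f* and *Eef2* both had 0.35, with SEs of 0.13 and 0.12. These genes are longer than the ribosomal protein genes, with a median principal transcript of 1829 bases.

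Of 38 genes of ribosome assembly none was called in either direction in control mice, and 6 were lower and none higher at an unadjusted p under 0.05, with a median of 0.04. DESeq2 called 2 of the 38 lower. Of 76 mitochondrial ribosomal protein genes edgeR called 1 higher, *Mrpl24* with 0.38 ± 0.10, and none lower, with a median of 0.15. Of the same list 11 were higher and 1 lower at an unadjusted p under 0.05, and DESeq2 called 5 higher. Of 72 nuclear-encoded respiratory chain genes, which are as short as the members (median principal transcript 709 bases), edgeR called 3 higher and none lower, with a median of 0.34, while 39 were higher and 1 lower at an unadjusted p under 0.05 and DESeq2 called 15 higher. Those called by edgeR were *Cox7a2l* with 1.06 ± 0.16, *Ndufa6* with 0.57 ± 0.13 and, named after its values were seen, *Uqcrh* with 0.63 ± 0.16.

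Of 21 tested regulators of ribosomal protein synthesis, 3 were called lower at ZT12 in control mice and none higher, and DESeq2 called 4 lower. *Tsc1*, a brake on mTOR, fell by 0.51 ± 0.11 (adjusted p = 0.0256 by edgeR), *Rptor*, a subunit of mTOR complex 1, fell by 0.49 ± 0.12 (adjusted p = 0.0408 by edgeR), and *Rictor*, of mTOR complex 2 and named after its values were seen, fell by 0.52 ± 0.13 (adjusted p = 0.0465 by edgeR). The list holds long genes, with a median principal transcript of 4991 bases, a length at which other expressed genes were lower at ZT12 as well. *Myc*, an activator of ribosome production, had 0.23 ± 0.17, and *Eif4ebp1*, an mTOR target that blocks translation, 0.57 ± 0.27, neither called. In knockout mice none of the lists of assembly, mitochondrial ribosome, respiratory chain and regulator genes held a gene called by edgeR or DESeq2, and 1, 0, 1 and 1 of their genes were higher and 1, 3, 2 and 0 lower at an unadjusted p under 0.05. Their medians were −0.01, −0.07, −0.06 and −0.01.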

How the data were processed

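Poly-A RNA of sort-purified IgA+ PCs was sequenced as read pairs after NEBNext Ultra library preparation. The authors deposited raw counts per gene as whole numbers, without normalization, and the aligner, counter, strand setting and build are not given in the sources used here. The submitters' processing notes name DESeq2 and DESeq. Coordinates are those of GRCm38, since 52056 of 53620 genes matched to GENCODE M21 have the same position. Genes with a total under 10 were removed and edgeR 4.0.16 (R 4.3.3; TMM, robust quasi-likelihood) was fitted to the means of the 4 groups. Adjustment followed Benjamini and Hochberg over all 20256 genes, and genes with an adjusted p under 0.05 are said to be called. The study used DESeq2, with a threshold of 0.01 in its general methods and 0.05 where it shows these libraries, and DESeq2 1.42.0 was run as an alternative. Fold changes are fitted log2 differences with their SE. The fits were also run on simulated counts. There genes were drawn independently around set means, so the simulation does not bear on how stable the calls are here. CPM are per 1000000 of TMM-scaled library size, and per-library levels are log2 values with a prior count.

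The ribosomal protein genes, the lists and the tests were chosen with earlier results of these data known, so counts over them are descriptions. Members named were the 6 with the smallest p in each direction in the control comparison, the 3 in each of the other comparisons, the 5 highest and 3 lowest per kilobase, and members fixed by role (stalk, 5S particle, S6 kinase target, ubiquitin fusion, paralogs). The values of 1 member named by this rule are not reported here, and it is not drawn in the figures by gene. From each list at most the 2 genes of smallest p in each direction were named. Replicates are separate mice. Same-numbered mice were taken as unpaired, since the correlation of their deviations ran from −0.26 to 0.35 and was over 0.1 in 6 of 19 pairs. Trends on length or GC content were lowess curves with a span of 0.5 over genes of mean log2 CPM over 3. Immunoglobulin genes were left out of these curves, and members over that level were kept in. At these depths counting error is small for most members, and the floor taken for a gene was 3 counts per library. Alternatives were other normalizations, filters, tests and thresholds, a fit on each comparison's own groups, a replicate block, immunoglobulin genes removed or as a covariate, length and GC trends removed, pseudogene counts added and each library left out. The run of table columns as a term and the trend on principal transcript length were chosen after seeing the data.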

Additional observations from a re-analysis of the deposited data

Results flagged for a closer look

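In each group the highest and lowest mouse were compared with the others for the named genes, and a mouse was picked out where its gap to the nearest other was large for the range of the group (Dixon's criterion). Chance picks out about 1 in 20 groups. Knockout ZT12 replicate 2 stood above the other 4 mice of its group in *Rps6* (385 CPM), *Rps4x* (371 CPM), *Rps14* (476 CPM), *Rpsa* (499.9 CPM), *Rpl7a* (95.6 CPM) and *Rpl13a* (10.6 CPM), genes that move together across libraries and so are not separate observations. *Rplp1* stood low in control ZT0 replicate 2 (235 CPM) and high in knockout ZT0 replicate 3 (490.3 CPM). Control ZT12 replicate 2, the highest library of all for the family, was not picked out in its own group, which spreads more widely.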

How the results depend on the processing

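The median change of the members in control mice was above 0 under every alternative run and the number called was not stable. Against 45 called higher (192 over all genes), DESeq2 called 68 (621), scaling by library size only 11 (48) and the replicate block 16 (85). Fits of only the groups compared called 0 (16), the immunoglobulin share as a covariate 0 (0) and a threshold of 0.01 in the main edgeR fit 0. With scaling by library size the median of all genes tested moved by −0.20 and that of the members was 0.39. The other alternatives called between 33 and 55 (145 to 301 over all genes). Leaving out 1 mouse called between 1 and 66 (12 to 463 over all genes). The count was 1 to 21 (12 to 97) without any one control ZT0 mouse. It was 1 to 24 (18 to 114) without control ZT12 replicate 2, 3, 4 or 5. Without knockout ZT0 replicate 1 or knockout ZT12 replicate 1 or 3 it was 26 to 29 (112 to 137). The median was 0.32 with the principal transcript length trend removed and 0.23 with the immunoglobulin covariate, and the median interaction was −0.24 and −0.11 under these. No member was called in the other 4 comparisons under any alternative, and the causes of these movements were not tested.

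Same-numbered mice did not deviate together, since 5 of 19 pairs had their best match in their own number. The replicate block therefore shares only a number. *Rps27a*, not called in any comparison, turned sign in control mice with the principal transcript length trend removed (−0.034) or the immunoglobulin covariate (−0.13). It did so between genotypes at ZT12 with the replicate block (−0.014) or the GC trend removed (−0.00341) and without control ZT12 replicate 1 (−0.022) or 6 (−0.011) or knockout ZT12 replicate 3 (−0.037), where leaving out 1 mouse gave −0.037 to 0.26 in all, and *Rps27l* did so in control mice with the immunoglobulin covariate (−0.052).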
